A study of Mus musculus with 8 samples.

Results

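The granules of a neutrophil are filled in steps while the cell matures in the bone marrow. Primary granule proteins such as myeloperoxidase are made first, in promyelocytes, and the proteins of the specific and gelatinase granules follow from the myelocyte stage on, under control of the transcription factor C/EBP epsilon. S100a8 and S100a9, which encode the subunits of the calcium-binding protein calprotectin, rise along the same path and are among the most abundant messages of mature neutrophils. In MLL-AF9 leukemia the cells are held at a stage near the granulocyte and monocyte progenitor, where late granule genes are usually low and primary granule genes are high.

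Expression of 10 such late genes was examined in the RNA-seq data of mouse MLL-AF9 leukemia. They were taken by name and comprised S100a8 and S100a9, the specific granule genes Ltf, Lcn2, Camp and Ngp, the metalloproteinase genes Mmp8 and Mmp9, and the membrane protein genes Cd177 and Il1r2. All 10 were found among the 12823 rows of the count table, and all 10 passed the filter that left 12494 genes for testing. Mmp9 passed it through the new AML libraries and 1 aggressive AML library.

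The table held 8 libraries of GFP-positive leukemia cells sorted from the bone marrow of C57BL/6 mice, 4 per group. Both groups carried the MLL-AF9 fusion on a retroviral vector that also expressed EGFP from a pgk promoter. New AML cells came from leukemia that arose after the transduced progenitors were given to sublethally irradiated recipients. Aggressive AML cells are described as obtained from that leukemia by 5 serial transplantations into non-irradiated recipients. The comparison asked how expression differed between the groups. The mice were male per the study's description of these RNA-seq data and young adults per its methods. The libraries are labelled as biological replicates, but the labels do not say whether each came from a separate mouse, so that the p-values measure only the spread between these libraries. The aggressive AML was the later stage, so that the number of passages and anything else that differed between the collections cannot be told apart.

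Total counts lay between 7805544 and 9697777 per library, and 1 count was worth 0.103 to 0.130 CPM after scaling. All 7 listed markers of MLL-AF9 leukemia (Hoxa9, Hoxa10, Meis1, Kit, Myb, Cd34 and Mef2c) were measured, with summed levels of 1945 to 2156 CPM in new AML and 2194 to 2465 CPM in aggressive AML. At an edgeR adjusted p under 0.05, Meis1, Kit and Mef2c rose in aggressive AML (log2 fold change 0.45, 0.65 and 0.62). Hoxa10 fell (-0.59), and the other 3 markers did not pass. Aggressive AML is described as derived from new AML. A list of 4 Y-linked genes summed to 250.9 to 286.9 CPM in the new AML libraries and was at 0 in each aggressive AML library. The groups thus also differ in their Y-linked expression. Neither the cause nor the descent of aggressive AML from new AML was tested.

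Of the 10 late genes, 7 fell in aggressive AML (S100a8, S100a9, Ltf, Camp, Ngp, Mmp8 and Mmp9), 1 rose (Il1r2), and Lcn2 and Cd177 did not pass the test. A gene was counted as changed at an adjusted p under 0.05 in the quasi-likelihood test of edgeR over all 12494 genes, where 10.2% of genes fell and 8.15% rose. Of the 7 genes that fell, 6 (all but S100a8) had a log2 fold change of -1 or lower, as did 2.74% of all tested genes with that call, and 18.4% of all genes were called in either direction. New AML and aggressive AML libraries were fully apart for the 7 genes that fell, as they were for 12.0% of all tested genes in that direction, and for Il1r2, as for 9.76% in the other. The median log2 fold change, aggressive AML over new AML, was -1.20 over the 10 genes and 0.00044 over all tested genes. The genes were chosen with earlier results of these data known, so the counts describe them and are not independent evidence. In bulk RNA, fewer cells that express a gene and less of its RNA per cell cannot be told apart.

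**Figure D1:**
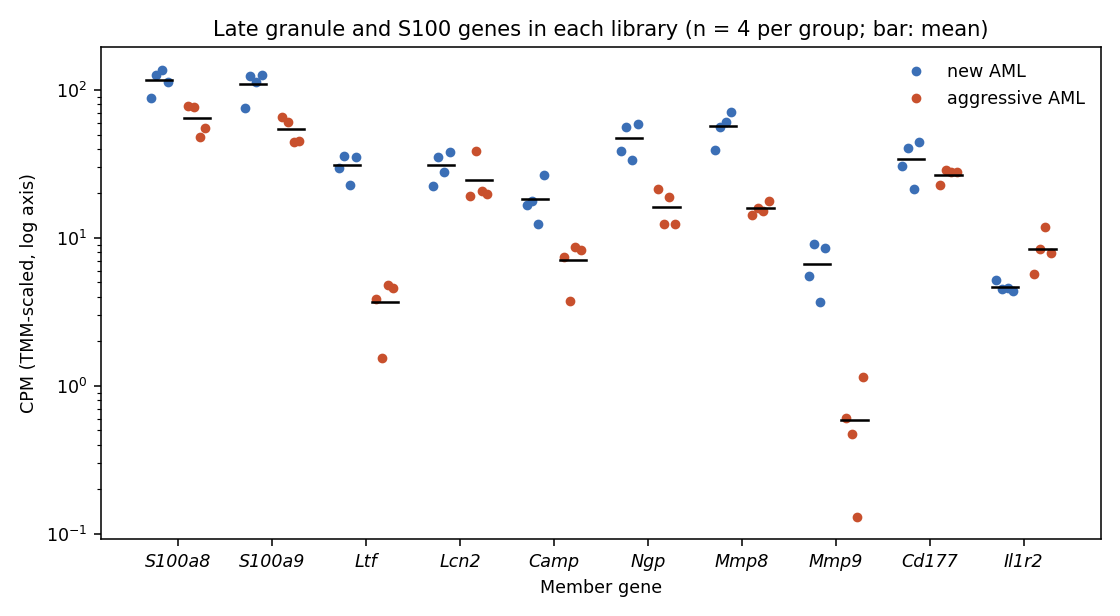
Expression of the 10 late neutrophil genes in each library, as TMM-scaled CPM on a log axis, with 1 point per library (4 new AML in blue, 4 aggressive AML in orange) and a bar at each group mean. The points of the groups are apart for 8 genes, with Il1r2 as the one gene higher in aggressive AML, and overlap for Lcn2 and Cd177.

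S100a8 and S100a9 encode the calprotectin subunits, which bind calcium and zinc and act as alarm signals when released. S100a8 (chromosome 3, 90669071 to 90670034, GRCm38, plus strand) measured 88.6, 126.5, 137.4 and 113.6 CPM in new AML replicates 1 to 4 and 77.7, 77.0, 48.5 and 55.6 CPM in aggressive AML replicates 1 to 4. The lowest new AML library lay above the highest aggressive AML library. The group means were 116.5 ± 21.0 and 64.7 ± 14.9 CPM (SD, n = 4), a 1.80-fold decrease (95% CI 1.43 to 2.26, edgeR adjusted p = 0.00140). S100a9 (chromosome 3, 90692630 to 90695721, minus strand) measured 75.1, 125.4, 112.6 and 127.2 CPM in new AML and 65.8, 61.3, 44.7 and 44.9 CPM in aggressive AML. It was 2.03-fold lower (95% CI 1.60 to 2.57, edgeR adjusted p = 0.000455), and again the groups were apart. The genes of both subunits were lowest in new AML replicate 1 and highest in aggressive AML replicate 1 within their groups. For S100a8, aggressive AML replicates 1 and 2 were nearly level, at 645 and 654 counts.

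Because the subunits form a heterodimer, the S100a8 to S100a9 count ratio was compared between groups. The mean ratio of the 4 new AML libraries was 1.08 ± 0.152 (SD), that of the 4 aggressive AML libraries was 1.19 ± 0.0778, and the difference was within the spread of the libraries (two-sided exact permutation p = 0.200, adjusted over 2 ratios 0.200). The smallest p that the 70 splits allow is 0.0286, or 0.0571 after adjustment when only 1 of the 2 ratios reaches it, so that neither ratio could be called alone.

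Ltf, Lcn2, Camp and Ngp encode antimicrobial proteins of the specific granules. Ltf encodes lactoferrin, which withholds iron from bacteria (chromosome 9, 111019292 to 111042766, plus strand). It measured 29.9, 36.0, 23.0 and 35.1 CPM in new AML and 3.85, 1.53, 4.79 and 4.55 CPM in aggressive AML. The lowest new AML library was thus several times higher than any aggressive AML library. The decrease was 8.41-fold (95% CI 5.87 to 12.1, log2 fold change -3.07, SE 0.24, edgeR adjusted p = 7.58e-07). Aggressive AML replicate 2 held 13 counts of Ltf, and without it the log2 fold change was -2.81.

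Ngp, neutrophilic granule protein, is a relative of the cathelicidins (chromosome 9, 110419808 to 110423012, plus strand). Its levels were 38.9, 56.4, 33.9 and 59.2 CPM in new AML and 21.3, 12.5, 18.9 and 12.5 CPM in aggressive AML, with no overlap. It was 2.89-fold lower (95% CI 2.14 to 3.90, edgeR adjusted p = 0.000106). Camp encodes the cathelicidin precursor, from which an antimicrobial peptide is cut (chromosome 9, 109847377 to 109849456, minus strand). It measured 16.7, 17.8, 12.4 and 26.6 CPM in new AML and 7.47, 3.77, 8.68 and 8.31 CPM in aggressive AML, and was 2.61-fold lower (95% CI 1.79 to 3.80, edgeR adjusted p = 0.00160). Ltf, Camp and Ngp were lowest in aggressive AML replicate 2 among their group and lowest in new AML replicate 3 among the other. For Ngp, aggressive AML replicates 2 and 4 were nearly level, at 106 and 110 counts.

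Lcn2 encodes lipocalin 2, which binds the iron carriers of bacteria (chromosome 2, 32384637 to 32387739, minus strand), and it did not follow the other specific granule genes. It measured 22.4, 35.1, 28.0 and 38.3 CPM in new AML and 19.3, 39.0, 20.9 and 19.7 CPM in aggressive AML. Aggressive AML replicate 2, where Ltf and Camp were lowest, had the highest Lcn2 level of the 8 libraries, while the other 3 aggressive AML libraries lay below every new AML library. The log2 fold change was -0.32 (95% CI -0.78 to 0.14, edgeR adjusted p = 0.325), and without aggressive AML replicate 2 it was -0.63 with an adjusted p of 0.0237. The interval of Lcn2 lay wholly above that of Ltf (-3.59 to -2.55), which shares its role in iron handling.

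The 2 metalloproteinase genes had the changes nearest in size to that of Ltf. Mmp8, neutrophil collagenase, is stored in the specific granules (chromosome 9, 7558429 to 7568486, plus strand). It measured 39.6, 56.2, 60.6 and 71.6 CPM in new AML, and the aggressive AML libraries were closely grouped at 14.3, 16.02, 15.3 and 17.8 CPM. The decrease was 3.59-fold (95% CI 2.84 to 4.53, edgeR adjusted p = 1.58e-06). Mmp9, gelatinase B, marks the gelatinase granules that are filled last (chromosome 2, 164940326 to 164955850, plus strand). It had 54, 76, 33 and 77 counts in new AML and 5, 4, 1 and 10 counts in aggressive AML, or 5.54, 9.04, 3.68 and 8.58 CPM against 0.602, 0.471, 0.130 and 1.14 CPM. The groups were apart, but the aggressive AML level rests on 20 counts in all. The log2 fold change was -3.45 (SE 0.44, 95% CI -4.38 to -2.53, edgeR adjusted p = 7.10e-05). Leaving out aggressive AML replicate 3 gave -3.15, and leaving out aggressive AML replicate 4 gave -3.99.

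The mean Mmp9 to Mmp8 count ratio was 0.121 ± 0.0431 (SD) over the 4 new AML libraries and 0.0397 ± 0.0229 over the 4 aggressive ones. It overlapped between groups, at 0.0616 in new AML replicate 3 and 0.0671 in aggressive AML replicate 4, and was not called (two-sided exact permutation p = 0.0571, adjusted over 2 ratios 0.114). As this test could not call 1 ratio alone, it does not settle whether the changes differ in size. The fitted intervals of the log2 fold changes did not overlap (-4.38 to -2.53 for Mmp9, -2.18 to -1.51 for Mmp8).

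Of the membrane protein genes, Cd177 was not called and Il1r2 was the one gene of the 10 that rose. Cd177 encodes a surface and granule glycoprotein of neutrophils (chromosome 7, 24743983 to 24760334, minus strand). It measured 30.7, 40.5, 21.5 and 44.4 CPM in new AML and 22.6, 28.6, 27.7 and 27.9 CPM in aggressive AML. New AML replicate 3 lay below every aggressive AML library, and the others of its group lay above them. The log2 fold change was -0.36 (95% CI -0.74 to 0.024, edgeR adjusted p = 0.181). Leaving out new AML replicate 3 moved it to -0.53 (adjusted p = 0.0185). Il1r2 encodes the decoy receptor that binds interleukin-1 without signalling (chromosome 1, 40084692 to 40125230, plus strand). It measured 5.23, 4.52, 4.57 and 4.35 CPM in new AML and 5.66, 8.36, 11.8 and 7.97 CPM in aggressive AML, which puts every aggressive AML library above every new AML library. The rise was 1.80-fold (95% CI 1.28 to 2.52, edgeR adjusted p = 0.0179), and without new AML replicate 2 the adjusted p was 0.0501 at a log2 fold change of 0.83. Il1r2 is overlapped by the annotated genes Gm16894, on the other strand, and Gm37347, with which it can share reads.

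**Figure D2:**
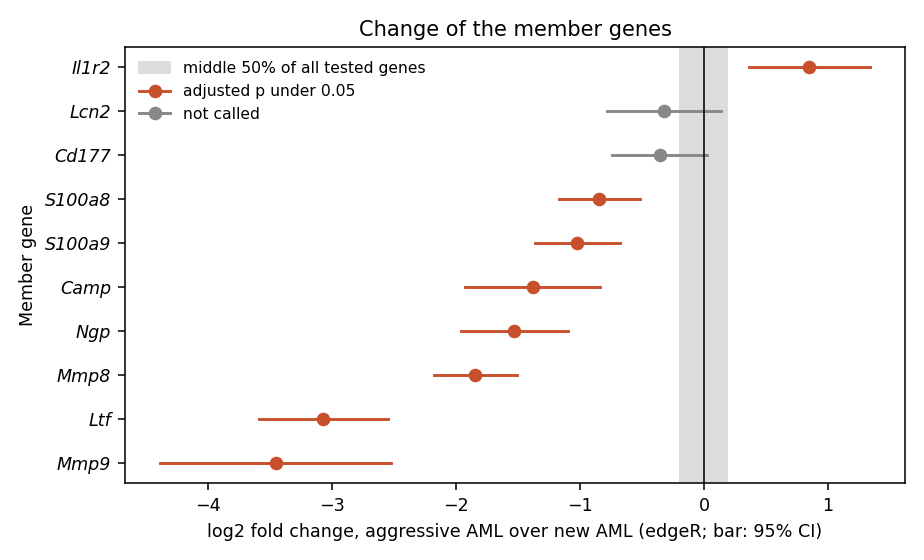
Fitted log2 fold change of each late neutrophil gene, aggressive AML over new AML, with 95% confidence intervals from edgeR, in orange for an adjusted p under 0.05 and in grey otherwise. The intervals of Ltf and Mmp9 end below -2, those of Lcn2 and Cd177 include 0, and the grey band holds the middle 50% of all 12494 tested genes (-0.20 to 0.19).

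Levels can be compared between genes only per transcript length. Per kilobase of the principal coding transcript, S100a8 (239.7 CPM per kb) and S100a9 (212.1 CPM per kb) were highest in new AML, and their values overlapped each other but not those of any other gene. Ngp (38.5), Lcn2 (33.8), Camp (24.3), Mmp8 (23.5), Cd177 (12.6) and Ltf (11.3) followed, and each of them overlapped its neighbour in this order. Il1r2 (3.29) and Mmp9 (2.11) were lowest and apart from each other. In aggressive AML the order per length was S100a8 (133.1), S100a9 (104.4), Lcn2 (27.0), Ngp (13.3), Cd177 (9.84), Camp (9.31), Mmp8 (6.54), Il1r2 (5.95), Ltf (1.34) and Mmp9 (0.184). Lcn2 stood above Ngp with no overlap there, whereas the values of these genes overlapped in new AML. The rank of Lcn2 depends on the length used, as its principal transcript has 915 bases and all its exons together 2623. Ltf stood below Il1r2 with no overlap in aggressive AML, the reverse of their order in new AML.

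**Figure D3:**
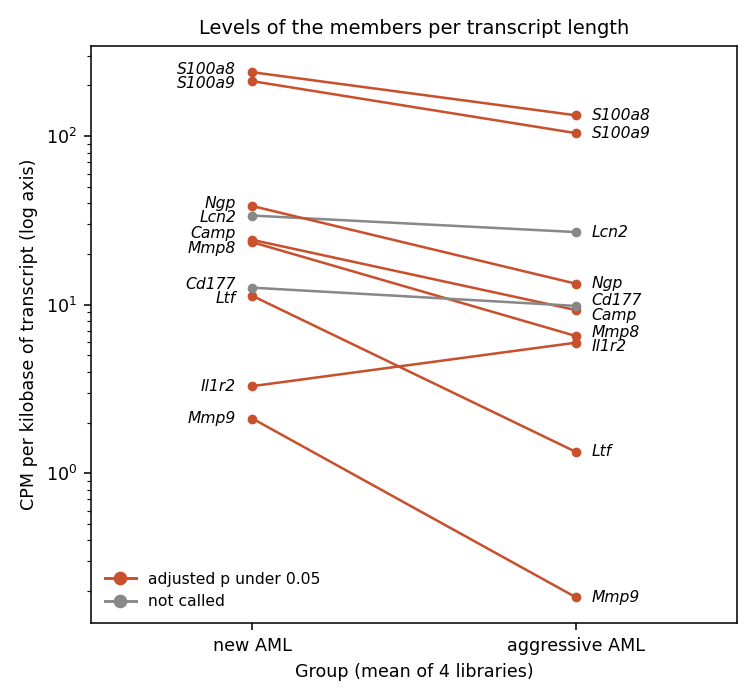
Mean level of each late neutrophil gene in new AML and aggressive AML, in CPM per kilobase of transcript on a log axis, with lines joining the means of the same gene (orange: adjusted p under 0.05, grey: not called). Ltf drops from 11.3 to 1.34 CPM per kb, past Il1r2, which climbs from 3.29 to 5.95.

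Within the groups the genes did not all vary together. New AML replicate 4 held the highest level of 6 of the 10 genes (S100a9, Lcn2, Camp, Ngp, Mmp8 and Cd177), new AML replicate 3 the lowest of 5 (Ltf, Camp, Ngp, Mmp9 and Cd177), and new AML replicate 1 the lowest of 4 (S100a8, S100a9, Lcn2 and Mmp8). New AML replicate 3 was at the same time the highest library for S100a8. Among the aggressive AML libraries, no single library was highest for more than 3 genes. The coefficient of variation in new AML ran from 8.35% for Il1r2 to 37.9% for Mmp9, and in aggressive AML from 9.11% for Mmp8 to 71.6% for Mmp9. Counting error alone would give 44.7% for Mmp9 in aggressive AML and 8.70% for Mmp8, so that the Mmp8 spread in that group was near counting error. The summed level of the 10 genes was 352.6 to 528.8 CPM in new AML and 200.4 to 248.5 CPM in aggressive AML.

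**Figure D4:**
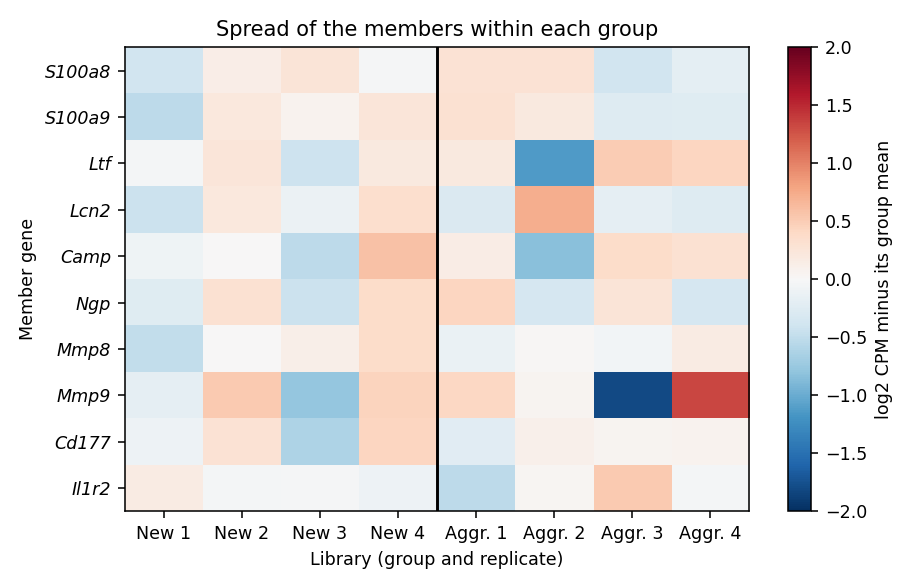
Deviation of each gene from its own group mean, in log2 CPM, for the 8 libraries (new AML 1 to 4 on the left of the line, aggressive AML 1 to 4 on the right), with red above and blue below the mean. In aggressive AML replicate 2 Ltf and Camp are low while Lcn2 is high, and the strongest deviations are those of Mmp9 in aggressive AML replicates 3 and 4, which rest on 1 and 10 counts.

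Several of the genes lie near each other. S100a8 and S100a9 are neighbours on chromosome 3, 22595 bases apart, and Camp, Ngp and Ltf lie within 1195390 bases of chromosome 9. Of the 15 other tested genes in that stretch of chromosome 9, Klhl18 and Nbeal2 fell and Als2cl rose, and their median log2 fold change was -0.0070. Within 200 kb of S100a8 there were 7 other tested genes, of which S100a6 rose, and their median log2 fold change was -0.037. Klhl18, Nbeal2 and Als2cl are named for their position and after their values were seen.

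Promoters were read for 9 of the 10 genes, from 250 bases before to 50 bases after a RefSeq start (GRCm38.p6). Mmp9 had no promoter window and was not read. The letters TTGCNNAA, a core of C/EBP sites, were found on either strand in 5 of these 9 windows (S100a9, Ltf, Lcn2, Ngp and Mmp8), against 10.8% of 32851 promoter windows of the same length, and the letters GAGGAA, a core of PU.1 sites, in 5 of 9 (S100a8, Ltf, Lcn2, Mmp8 and Cd177) against 28.3%. Camp and Il1r2 had neither. The Il1r2 window (40085843 to 40086142) lay inside the gene span given above, which begins at 40084692. The bases before that first position were not read. For Cd177 the 250 bases before the start (24760312 to 24760561) also reached into the span given above, which ends at 24760334. The windows with a C/EBP match are shown because they include genes that fell strongly (Ltf, Mmp8 and Ngp) as well as Lcn2, which was not called. Each line gives the 250 bases before the start, 5′ to 3′ on the gene's strand, with the TTGCNNAA matches in capitals.
Ltf (chr9:111019042-111019291, plus strand): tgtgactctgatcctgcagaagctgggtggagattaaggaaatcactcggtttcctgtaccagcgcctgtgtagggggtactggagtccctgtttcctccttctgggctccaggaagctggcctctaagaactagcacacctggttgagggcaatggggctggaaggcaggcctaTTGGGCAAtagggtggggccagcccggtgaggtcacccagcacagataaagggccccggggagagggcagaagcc
Mmp8 (chr9:7558179-7558428, plus strand): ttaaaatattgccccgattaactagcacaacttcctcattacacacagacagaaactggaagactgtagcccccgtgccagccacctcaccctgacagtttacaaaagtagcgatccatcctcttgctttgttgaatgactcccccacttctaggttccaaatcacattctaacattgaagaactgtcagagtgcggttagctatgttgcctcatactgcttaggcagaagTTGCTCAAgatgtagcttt
Ngp (chr9:110419558-110419807, plus strand): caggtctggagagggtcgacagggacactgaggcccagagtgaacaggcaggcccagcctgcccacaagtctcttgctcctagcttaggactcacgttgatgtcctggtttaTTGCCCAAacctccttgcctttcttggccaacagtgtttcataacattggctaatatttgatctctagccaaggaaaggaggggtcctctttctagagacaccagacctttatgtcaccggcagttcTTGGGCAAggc
S100a9 (chr3:90695722-90695971, minus strand): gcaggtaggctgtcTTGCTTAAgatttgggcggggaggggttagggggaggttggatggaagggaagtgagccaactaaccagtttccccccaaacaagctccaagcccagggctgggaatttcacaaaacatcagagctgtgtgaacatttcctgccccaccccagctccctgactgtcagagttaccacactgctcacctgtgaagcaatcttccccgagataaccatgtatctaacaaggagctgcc
Lcn2 (chr2:32387740-32387989, minus strand): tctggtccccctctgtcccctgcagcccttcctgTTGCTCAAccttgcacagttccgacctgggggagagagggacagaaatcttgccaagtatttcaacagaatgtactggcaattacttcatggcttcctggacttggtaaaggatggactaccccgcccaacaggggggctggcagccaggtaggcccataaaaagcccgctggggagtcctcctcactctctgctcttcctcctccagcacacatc
Counted from the start, with -1 as the base before it, the match lay at -75 to -68 in Ltf (TTGGGCAA, on the other strand), at -19 to -12 in Mmp8 (TTGCTCAA) and at -216 to -209 in Lcn2 (TTGCTCAA). Ngp had 2 matches, at -138 to -131 and, on the other strand, at -11 to -4, and S100a9 had 1, at -236 to -229. Mmp8 and Lcn2 thus carried the same 8 letters, and the former was 3.59-fold lower while the latter did not pass the test. A match is a description of the letters and not evidence of binding.

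The regulators of granule genes were compared next. Of 11 tested regulators 5 fell and 1 rose, with a median log2 fold change of -0.28. The one that rose was Cebpe, which encodes C/EBP epsilon and is required for specific granules. It increased from 28.5 ± 7.94 to 61.0 ± 17.6 CPM (SD, n = 4, log2 fold change 1.10, edgeR adjusted p = 0.00233), although the groups overlapped. Runx1, a core factor of blood formation, fell from 202.5 ± 18.6 to 102.5 ± 13.5 CPM (log2 fold change -0.98, edgeR adjusted p = 9.17e-06). Csf3r, the receptor of granulocyte colony-stimulating factor, fell from 115.5 ± 11.2 to 69.8 ± 6.26 CPM (log2 fold change -0.73, edgeR adjusted p = 8.30e-05). Cebpd (log2 fold change -0.59), Stat3 (-0.37) and Spi1, which encodes PU.1 (-0.25), also fell, Spi1 at an adjusted p of 0.0159 that was 0.0530 without new AML replicate 2. Cebpa, the factor of early granulocyte commitment, was at 323.8 ± 24.9 and 301.7 ± 62.3 CPM, and Gfi1, a repressor needed for neutrophil maturation, at 88.3 ± 6.43 and 85.2 ± 16.6 CPM, and neither was called (edgeR adjusted p = 0.601 and 0.812).

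Other genes of late neutrophils did not share one direction. Of 25 tested genes in a list of 32, 7 rose, 4 fell and 14 were not called, with a median log2 fold change of 0.31. Stfa1, a cystatin with close copies that can share its reads, rose from 8.90 ± 3.90 to 27.8 ± 6.75 CPM (log2 fold change 1.65). Slpi, an inhibitor of neutrophil elastase, rose from 1312 ± 137.6 to 3346 ± 316.2 CPM (log2 fold change 1.35, edgeR adjusted p = 1.69e-07). Clec4d, a C-type lectin receptor (log2 fold change 1.06), and Padi4, which citrullinates histones in neutrophils (0.96), rose too. On the other side were Retnlg, a resistin-like protein of mature neutrophils (log2 fold change -2.93, 4.28 ± 2.92 to 0.554 ± 0.342 CPM), Lyz2 (-1.08), Itgam (-0.61) and Cybb (-0.30). Lyz2, lysozyme, overlapped between groups (465.3 ± 210.9 and 220.4 ± 42.2 CPM). The call of Cybb, the catalytic subunit of the phagocyte oxidase, was lost without new AML replicate 2 (adjusted p = 0.10), new AML replicate 4 (0.0855), aggressive AML replicate 1 (0.0888) or aggressive AML replicate 2 (0.0780).

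The primary granule genes precede the late ones in maturation. Of 12 tested, 4 rose, 1 fell and 7 were not called, with a median log2 fold change of 0.10. Ctsg, cathepsin G, rose from 1407 ± 144.2 to 2004 ± 148.1 CPM (log2 fold change 0.51, edgeR adjusted p = 0.000636). Srgn, which encodes the granule proteoglycan serglycin (log2 fold change 0.42), and Prss57, a serine protease (0.41), also rose. Elane, neutrophil elastase, rose from 802.8 ± 145.8 to 1154 ± 263.2 CPM (edgeR adjusted p = 0.0205), and its call was lost without new AML replicate 1 (adjusted p = 0.0660), new AML replicate 2 (0.0566) or aggressive AML replicate 1 (0.0718) and in DESeq2 (0.0540). Hexa, a lysosomal enzyme, fell (log2 fold change -0.55). Mpo, myeloperoxidase, was at 2399 ± 133.5 and 2092 ± 554.4 CPM (edgeR adjusted p = 0.328), and it was called lower when aggressive AML replicate 1 was left out (log2 fold change -0.39, adjusted p = 0.0155), which made 2 genes of the list lower. Mpo was named after its values were seen. The summed level of this list was 7578 to 8757 CPM in new AML and 7571 to 10554 CPM in aggressive AML, against 200.4 to 528.8 CPM for the late genes over both groups. These sums are not scaled by transcript length, so they do not rank the lists. The difference in behaviour between the lists was not tested as such.

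**Figure D5:**
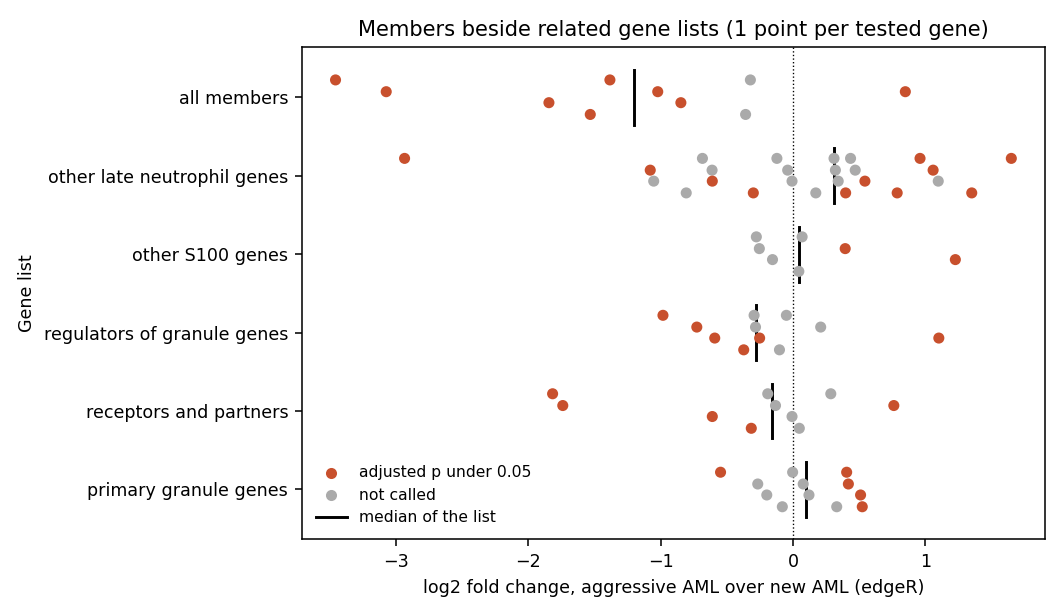
Log2 fold changes, aggressive AML over new AML, of the late neutrophil genes (top row, all members) and of 5 related lists, with 1 point per tested gene, orange for an adjusted p under 0.05, and a black line at the median of each list. The median is -1.20 for the late neutrophil genes, 0.31 for other late neutrophil genes, 0.04 for other S100 genes with S100pbp, -0.28 for regulators, -0.16 for receptors and partners and 0.10 for primary granule genes.

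Beside the calprotectin pair, a list of 6 tested S100 genes and S100pbp, which encodes a binding partner of an S100 protein and not an S100 protein itself, was examined. Of these 7 genes 2 rose, both S100 genes, and 0 were called lower in edgeR, DESeq2 or limma. In the edgeR fit to all libraries, 0 had an unadjusted p under 0.05 in that direction, and 1 did in each of 4 fits that left out a library (new AML replicates 1 and 3, aggressive AML replicates 2 and 4). S100a6, a calcium-binding protein encoded near S100a8, rose from 39.6 ± 0.970 to 92.8 ± 28.3 CPM (log2 fold change 1.23, edgeR adjusted p = 0.000118), and S100a11 rose from 75.7 ± 6.20 to 99.5 ± 4.80 CPM (log2 fold change 0.39, edgeR adjusted p = 0.00398).

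Of 10 tested receptors and partners of the late neutrophil proteins, 4 fell, 1 rose and 5 were not called (median log2 fold change -0.16). Over all tested genes, 10.2% fell and 8.15% rose. P2rx7, an ATP-gated channel through which the cathelicidin peptide can act, fell from 15.2 ± 3.60 to 4.31 ± 1.03 CPM (log2 fold change -1.82, edgeR adjusted p = 5.30e-05). Il1rn, which encodes the interleukin-1 receptor antagonist, fell from 3.03 ± 1.13 to 0.886 ± 0.501 CPM (log2 fold change -1.74, edgeR adjusted p = 0.00986), whereas the decoy receptor Il1r2 rose. Il1rap, the coreceptor for interleukin-1, was at 22.4 ± 3.26 and 27.4 ± 2.52 CPM (edgeR adjusted p = 0.129). Itgam, the integrin chain to whose complex CD177 can bind, fell, and its partner Itgb2 was at 270.2 ± 21.4 and 268.9 ± 4.66 CPM (edgeR adjusted p = 0.958). Lrp1, a scavenger receptor that takes up lactoferrin, fell by 0.31 on the log2 scale (edgeR adjusted p = 0.0125, and 0.0602 without new AML replicate 2).

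Of the receptors of calprotectin, Tlr4 was at 7.79 ± 3.15 and 7.11 ± 1.71 CPM (edgeR adjusted p = 0.777), and Ager rose from 4.56 ± 0.486 to 7.78 ± 2.77 CPM at an adjusted p of 0.0418. That call was lost in 8 of 18 alternatives. The adjusted p of Ager was 0.0618, 0.0841, 0.0834 and 0.0928 without new AML replicates 1, 2, 3 and 4, 0.128 and 0.0571 when aggressive AML replicates 3 and 4 were left out, and 0.0665 with a replicate block and 0.0603 in limma-voom. In the list of metalloproteinase inhibitors and other metalloproteinases, 0 of 5 tested genes were called by edgeR, and 1 (Adam8, higher, named after its values were seen) had an unadjusted p under 0.05, as in DESeq2, where 0 were called as well, and Adam8 was called higher without aggressive AML replicate 1. Il1r1, Slc22a17, Timp1 and Timp2 were not found by name in the count table, so they were not analysed here.

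Markers of mature neutrophils and of monocytes were read beside these results, since such cells also express late neutrophil genes. Of 8 neutrophil markers 6 were measured, 2 fell (Retnlg and Csf3r) and 1 rose (Trem1, log2 fold change 0.54), and their summed level was 130.04 to 163.3 CPM in new AML and 91.9 to 109.7 CPM in aggressive AML. Most of that sum was Csf3r. Of the defining surface markers, Ly6g was low in both groups, at 1.25 ± 0.313 and 1.57 ± 0.963 CPM, and Cxcr2 was at 7.46 ± 0.325 and 4.86 ± 1.39 CPM, with the groups apart. Neither was called. Leaving out aggressive AML replicate 2 made Cxcr2 a call (lower, adjusted p = 0.0278), as did limma on log2(CPM + 1) (0.0452). Of 13 monocyte and macrophage markers 10 were measured and 9 tested, of which 4 fell (Csf1r, Adgre1, Ccr2 and Cx3cr1) and 5 were not called. Csf1r went from 166.2 to 51.2 CPM and Ccr2 from 313.1 to 163.7 CPM, while the sum of the list, mostly Ly6c2, was 2156 to 2958 CPM in new AML and 2440 to 2577 CPM in aggressive AML. Among 4 measured dendritic cell markers, Itgax and Siglech fell, with log2 fold changes of -1.91 and -3.59. The part of these cell types in the change of the late neutrophil genes was not tested, and the sort was on GFP alone as far as it is described.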

How the data were processed

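For the GFP-positive leukemia cells, the authors sequenced poly(A) RNA, aligned the read pairs to mm10 with HISAT2 and counted them per gene with Rsubread, leaving out genes under 1 CPM. The gene annotation and strand setting were not given in the sources used here. Although its name refers to CPM, the deposited table holds whole-number counts with a different total in each of the 8 libraries, so it was used as raw counts.

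Tests covered genes that reached 1 CPM in 4 or more libraries (12494 of 12823 rows) with the quasi-likelihood test of edgeR 4.0.16 in R 4.3.3, on counts scaled by TMM, with group as the only term and Benjamini-Hochberg adjustment over all genes at 0.05. The model was tested on simulated data. CPM are TMM-scaled. Alternatives were other scalings, filters, DESeq2 1.42.0, limma 3.58.1, a replicate block and leaving out each library, with the tested genes kept. Count ratios, with 0.5 added to each count, were tested by exact two-sided permutation.

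Coordinates and promoters come from RefSeq GRCm38.p6, the build of mm10, and transcript lengths from GENCODE M21. The genes, lists and tests were chosen with earlier results of these data known. The text names all 10 late neutrophil genes, up to 4 called genes per direction of each related list, those with the largest changes, and regulators, receptors and partners chosen with the lists. No pair of libraries within a group agreed within sampling noise (chi-square per degree of freedom 4.12 to 11.3). Libraries differ in depth by little, and precision at low counts is limited by counting error.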

Additional observations from a re-analysis of the deposited data

Results flagged for a closer look

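Within the groups of 4 libraries, 24 sets of values (10 genes and 2 ratios in 2 groups) were searched for a library far from the others by Dixon's criterion, which flags about 1 set in 20 by chance. Lcn2 in aggressive AML replicate 2, at 39.0 CPM, was above the other 3 libraries of its group, with a gap of 0.919 of the group's range. Cd177 in aggressive AML replicate 1, at 22.6 CPM, was below the others of its group, with a gap of 0.850 of the range.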

How the results depend on the processing

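Under each of the 18 alternatives, S100a8, S100a9, Ltf, Camp, Ngp, Mmp8 and Mmp9 were called lower in aggressive AML, so that the number of late neutrophil genes called lower was 7 in each alternative except without new AML replicate 3 and without aggressive AML replicate 2, where it was 8, through Cd177 and Lcn2. The number called higher ranged from 0 (without new AML replicate 2) to 1 over the fits that left out a library and was 1 otherwise. On the log2(CPM + 1) scale of limma the change of Mmp9 was -2.25, that of Retnlg -1.60 and that of Il1rn -1.10, where the added 1 understates changes of low genes. The number of all genes called lay between 1534 (without new AML replicate 2) and 2538 (DESeq2), against 2296. The share of all genes called lower was lowest at 7.08%, without new AML replicate 2. Libraries with the same replicate number did not deviate together over all genes (r = -0.065 to 0.204, over 0.1 in 1 of 4 pairs), so the numbers are not taken as pairs. A fit with the replicate number as a block called 7 late neutrophil genes lower and 1 higher and 2367 genes in all. With the block, the adjusted p of the ratios was 0.375 for S100a8 to S100a9 and 0.250 for Mmp9 to Mmp8, in a design of 4 pairs that cannot go under 0.125. Depth limits Mmp9 most, with 1 to 10 counts per aggressive AML library.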

Other observations

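Late neutrophil genes and other marker lists were also summed per library as a description of what the sorted cells held. Erythroid markers summed to 30.6 to 106.4 CPM in new AML and 10.6 to 55.2 CPM in aggressive AML. Of 8 tested erythroid markers 3 fell (Hba-a1, Slc4a1 and Ermap) and 5 were not called. The calls of Hba-a1, Slc4a1 and Ermap held in 7, 15 and 18 of 18 alternatives. Markers of eosinophils, basophils and mast cells summed to 52.2 to 65.4 CPM and 104.3 to 117.1 CPM. Of the 3 measured, Mcpt8 rose from 27.9 ± 5.55 to 77.8 ± 7.27 CPM (log2 fold change 1.48, edgeR adjusted p = 2.02e-06), and Cpa3 and Prg2 were not called (adjusted p = 0.406 and 0.955). Dendritic cell markers, mostly Flt3, summed to 520.6 to 740.1 CPM and 635.3 to 828.4 CPM. Flt3 and H2-Ab1 were not called, whereas Itgax fell from 40.2 ± 8.10 to 10.7 ± 1.71 CPM (log2 fold change -1.91, edgeR adjusted p = 1.31e-06) and Siglech fell from 5.58 ± 2.17 to 0.448 ± 0.408 CPM (log2 fold change -3.59, edgeR adjusted p = 0.000184). The part of dendritic cells in the change of the late neutrophil genes was not tested. B cell markers summed to 36.6 to 42.2 CPM and 30.6 to 33.7 CPM from 3 measured genes. Only 1 gene each was measured from the lists for T cells, NK cells and megakaryocytes (Bcl11b, Nkg7 and Itga2b), with levels of 3.90 to 6.30, 11.1 to 22.2 and 4.68 to 8.58 CPM in new AML and 2.46 to 17.4, 19.95 to 29.9 and 2.17 to 5.44 CPM in aggressive AML. The other markers of these lists, such as Cd3e, Ncr1 and Pf4, were not found by name in the count table. That table leaves out genes under 1 CPM. Bcl11b (log2 fold change 1.20, edgeR adjusted p = 0.0427) and Nkg7 (0.70, 0.0225) were called higher, and Itga2b was not called. The calls of Bcl11b and Nkg7 held in 6 and 14 of 18 alternatives.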
